A study of Homo sapiens with 7 samples.

Results

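The 237 protein-coding genes described here carry a symbol made of ZNF and a number and lie on any human chromosome other than 19. They were chosen by symbol and chromosome in the RefSeq gene table, by a rule that uses no measured value but was set with earlier results of these data known, from 20050 protein-coding genes in all. The 240 ZNF genes of chromosome 19 and the 19573 other protein-coding genes serve as comparison. N6-methyladenosine (m6A) was mapped in RNA of the human embryonic kidney line HEK-293T, by a chemical method and by an antibody method, which the study set out to compare. In m6A-ORL, fragmented RNA was treated in sequence with NO/O2, TDO and a probe named BA, caught through biotin on streptavidin beads and released with DTT. In MeRIP, fragmented RNA was captured with an anti-m6A antibody. Each method has 2 captured libraries with a peak list. By its label m6A-ORL replicate 1 is total RNA, while m6A-ORL replicate 2 and both MeRIP replicates are polyA RNA, so RNA type and replicate cannot be told apart within m6A-ORL. The protocol text shared by all samples describes oligo(dT) selection, which is at odds with a total RNA label, and RNA types are given here as labelled. All libraries come from 1 untreated cell line, and no label says that replicates are separate cultures, so p-values cover the spread between the libraries alone, which may be of technical origin. The 3 input samples were not analysed here.

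The lists held 11022 and 7661 peaks by m6A-ORL, against 20760 and 20216 peaks by MeRIP. No read depth is given in the files, and precision is set by how many peaks there are. A peak is a stretch of RNA that the authors listed as enriched, and a gene without a listed peak may lack m6A, be little expressed or lie under the authors' threshold, which cannot be told apart because expression was not measured. In bulk RNA, fewer cells of a type and less RNA per cell cannot be told apart either. Of 8 marker genes of other cell types, 7 had no peak in any list, and the exception was the collagen gene COL1A1, with 8 and 1 peaks by m6A-ORL and 0 and 1 by MeRIP. IRS4, an insulin receptor substrate gene known for its high expression in HEK-293 cells, had 5 and 6 peaks by m6A-ORL and 2 in each MeRIP list.

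Most ZNF genes encode proteins with arrays of C2H2 zinc fingers, each finger folding around a zinc ion and contacting bases of DNA or RNA. Many also carry a KRAB domain, which recruits the corepressor TRIM28 and is known for silencing transposable elements, and some carry a SCAN domain, through which such proteins pair with each other. A tandem array of fingers is often encoded by 1 long exon near the 3' end of the gene. In mRNA, m6A is deposited by the METTL3 and METTL14 complex, mostly within a short motif whose commonest form is GGAC, and it is known to lie mainly in long internal exons and in final exons near the stop codon. Where transcription starts with an A, the first base can itself be N6-methylated, and anti-m6A antibodies bind that form as well.

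Peaks lay over the RefSeq transcription start of some of these genes, and those starts are shown first, since they are the only stretches of transcript whose sequence was at hand. RefSeq (GRCh38.p14, the same build as hg38) gave a start for 195 of the 237 genes, 258 starts in all. Of these, 9 and 1 (3.49% and 0.388%) had a peak over the first 50 transcribed bases by m6A-ORL, against 23 and 25 (8.91% and 9.69%) by MeRIP. The shares were below those of starts of other protein-coding genes by m6A-ORL, where these were 4.77% and 2.50%, and above them by MeRIP, where these were 6.21% and 6.14%. A peak in any list covered 33 starts (12.8%) of 31 genes, near the 12.4% of starts of other protein-coding genes. The first 30 transcribed bases, 5' to 3', are printed for the 4 starts with peaks by both methods, for 3 with a peak in m6A-ORL replicate 1 alone and for 3 with a peak in both MeRIP lists and no m6A-ORL peak. Capitals mark GGAC, searched on the transcribed strand only.
ZNF276: ccccctccgcgcgtactgcgggccccacgg
ZNF503: agagccccggctGGACacgcagcggctcgc
ZNF687: aggaagtagcggcggccgcggggagggcgg
ZNF768: agacgtccggcctcgggggcccgggctggg
ZNF207: gtcggccattttgtgtctgcttcctgtggg
ZNF22: acttccggcggcgcgggaggcgcccagcga
ZNF646: agtaacaataggaagtgtccgtagagctgg
ZNF213: gaGGACttccggcgccgggagctcgcggcg
ZNF263: aacttgcgcgctgagatttccggcgtggga
ZNF697: agtgaggagtcagccgggcagccagccagc

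These windows lie at chr16:89721002-89721031 on the plus strand for ZNF276, chr10:75401735-75401764 on the minus strand for ZNF503, chr1:151282299-151282328 on the plus strand for ZNF687 and chr16:30526537-30526566 on the minus strand for ZNF768. Those with a peak in m6A-ORL replicate 1 alone are chr17:32350157-32350186 (ZNF207), chr10:45000923-45000952 (ZNF22) and chr16:31074422-31074451 (ZNF646), all on the plus strand. Those with MeRIP peaks alone are chr16:3135029-3135058 (ZNF213) and chr16:3283491-3283520 (ZNF263) on the plus strand and chr1:119648237-119648266 (ZNF697) on the minus strand. At the starts of ZNF276, ZNF503 and ZNF687 the m6A-ORL peak was in replicate 1, and at that of ZNF768 it was in replicate 2. ZNF503 alone of the 4 holds GGAC in the printed stretch. In ZNF503, a developmental corepressor gene whose span also held an ID left unnamed, the peak of m6A-ORL replicate 1 ran over chr10:75401644-75401764 and so ended exactly at the annotated start, as did the peaks of both MeRIP lists. Peaks of ZNF22, ZNF282 and ZNF316 likewise began exactly at the annotated start. Whether peaks were cut at annotated ends when they were listed is not given, so nothing is read from this match.

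The first transcribed base was A at 106 of the 258 starts (41.1%), below the 50.3% of starts of other protein-coding genes. Among starts with a peak it was A at 4 of 9 in m6A-ORL replicate 1 and at the single start of replicate 2, against 15 of 23 (65.2%) and 15 of 25 (60.0%) in the MeRIP lists. At other protein-coding genes the MeRIP values were 51.0% and 51.2%, close to the share over all their starts. Under m6A-ORL peaks those other genes had 57.0% in replicate 1 and 44.0% in replicate 2. ZNF genes of chromosome 19 had 65.0% and 66.7% under MeRIP peaks against 45.6% over all starts. GGAC lay in the first 50 bases of 44 starts (17.1%), against 19.8% of all protein-coding starts, and of 4 of 23 and 5 of 25 starts with a MeRIP peak. The part of the first base or of the motif in these peaks was not tested.

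Of the 237 genes, 123 (51.9%) had a peak in m6A-ORL replicate 1 and 51 (21.5%) in replicate 2, against 177 (74.7%) in MeRIP replicate 1 and 174 (73.4%) in replicate 2. The exact (Clopper-Pearson) 95% binomial intervals were 45.3 to 58.4 and 16.5 to 27.3 for m6A-ORL, and 68.6 to 80.1 and 67.3 to 78.9 for MeRIP. Over all protein-coding genes the shares were 27.4% and 19.9% by m6A-ORL and 39.4% and 38.7% by MeRIP. ZNF genes of the other chromosomes were thus listed more often than the background in 3 libraries, at 1.89 times its share in m6A-ORL replicate 1 and 1.90 times in each MeRIP list. The polyA RNA library of m6A-ORL, replicate 2, had them near the background, at 1.08 times its share. Among genes with a peak in any list, however, that library listed 26.8% of them, against 40.2% of other protein-coding genes. ZNF genes of chromosome 19 had 29.2% and 10.8% by m6A-ORL and 52.5% and 53.3% by MeRIP. At least 1 list held a peak for 190 genes (80.2%), where the background was 50.1%, and 47 genes had none. ZNF589, among these 47, had 2 and 0 peaks by m6A-ORL and 2 and 1 by MeRIP when peaks were assigned by span and strand.

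**Figure D1:**
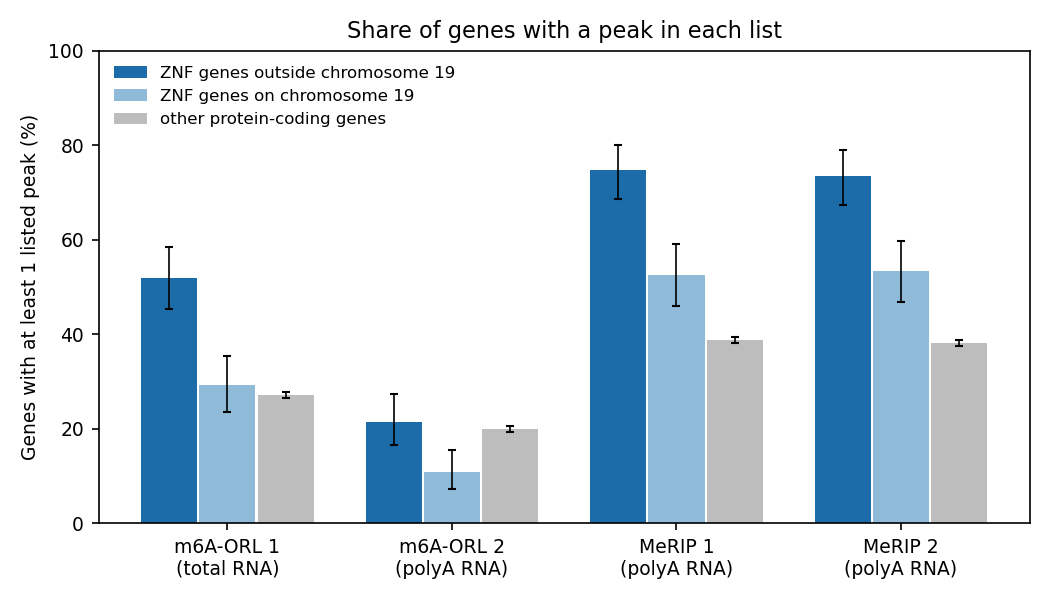
Share of genes with at least 1 listed peak (%) in each library, for 237 ZNF genes outside chromosome 19, 240 ZNF genes on chromosome 19 and 19573 other protein-coding genes. Bars are shares and whiskers exact 95% binomial intervals over genes. ZNF genes outside chromosome 19 stand at 51.9% in m6A-ORL replicate 1 and at 21.5% in replicate 2, and above 70% in both MeRIP lists.

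The mean share was 36.7% ± 21.5 by m6A-ORL and 74.1% ± 0.895 by MeRIP (SD, n = 2 each), a difference of -37.3 percentage points (p = 0.33 by two-sided exact permutation of the method labels, the lowest value 2 libraries against 2 can give). The spread between the m6A-ORL libraries far exceeds that between the MeRIP libraries. The excess of these genes over other protein-coding genes was 24.8 and 1.56 points by m6A-ORL and 35.9 and 35.4 points by MeRIP. The methods therefore differed by -22.4 points in this excess (exact two-sided permutation p = 0.33). Among genes with a peak in any list, the excess was 10.1 and -13.4 points by m6A-ORL and 14.9 points in each MeRIP list. The difference between methods was then -16.5 points (exact two-sided permutation p = 0.33). Since that filter rests on the same lists, this difference is no separate support. With all lists cut to equal length, the difference in the share of genes was -11.4 points (exact two-sided permutation p = 0.33). That in the excess was -9.63 points (p = 0.67 by the same permutation), no longer the most extreme that the labels can give.

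Of all genes, ZNF genes outside chromosome 19 were listed more often than those on it in every library, by 22.7 and 10.7 points by m6A-ORL and by 22.2 and 20.1 points by MeRIP (mean 18.9, exact two-sided sign-flip permutation p = 0.13 over 4 libraries, the smallest they allow). Among genes with a peak in any list, the differences were 14.0 and 8.00 points by m6A-ORL and 1.85 and -1.17 points by MeRIP. Their mean was 5.67 points (exact two-sided sign-flip permutation p = 0.25). This filter rests on the same 4 lists.

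Both libraries of a method agreed far more often by MeRIP. Peaks in both m6A-ORL lists were found for 39 genes (16.5%, interval 12 to 21.8; background 12.1%), and in both MeRIP lists for 165 genes (69.6%, interval 63.3 to 75.4; background 36.4%). All 4 lists held 37 genes (15.6%; background 10.0%). A further 73 genes (30.8%; background 9.99%) had peaks in both MeRIP lists and in m6A-ORL replicate 1 but not in replicate 2, whereas 12 (5.06%; background 4.76%) had the reverse pattern of m6A-ORL. Both MeRIP lists and no m6A-ORL list held 43 genes (18.1%; background 11.7%). An m6A-ORL peak without a MeRIP peak was listed for 4 genes (1.69%; background 8.46%), out of 135 genes with a peak in at least 1 m6A-ORL list.

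The m6A-ORL shares were also read by the number of MeRIP peaks. Genes with peaks in both MeRIP lists were listed by m6A-ORL replicate 1 in 60.7%, 59.3%, 65.5% and 77.8% of cases where the MeRIP lists together held 2, 3 to 4, 5 to 6 and 7 or more peaks. For m6A-ORL replicate 2 the shares were 28.6%, 22.2%, 20.7% and 42.6%, over 28, 54, 29 and 54 genes. Other protein-coding genes ran at 45.2%, 52.0%, 60.6% and 69.0% in m6A-ORL replicate 1 and at 31.4%, 38.6%, 47.1% and 55.9% in replicate 2. At each number of MeRIP peaks, ZNF genes outside chromosome 19 were thus above other genes in the total RNA library and below them in the polyA RNA library. ZNF genes of chromosome 19 had 41.9%, 46.7%, 63.2% and 70.8% in m6A-ORL replicate 1, over 31, 45, 19 and 24 genes. In replicate 2 they had 9.68%, 20.0%, 15.8% and 33.3%, also below other genes at each number. The low shares in the polyA RNA library are therefore not particular to the genes outside chromosome 19.

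The genes with most peaks among the 37 in all 4 lists were led by ZNF629 (ENSG00000102870, chr16:30778456-30787205, minus strand), with 3 and 3 peaks by m6A-ORL and 8 and 7 by MeRIP. ZNF142 (chr2:218633329-218659623, minus strand) had 8 and 1 by m6A-ORL, the highest number of any of these genes in m6A-ORL replicate 1, and 6 and 5 by MeRIP. ZNF608, a close relative of the transcriptional regulator gene ZNF609, had 5 and 1 against 8 and 6. In all 3 genes MeRIP replicates agreed within 2 peaks, while m6A-ORL replicate 2 ranged from 1 to 3.

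ZNF687, whose protein joins the chromatin reader ZMYND8 in a complex with the ZNF532 and ZNF592 proteins, had 6 and 4 peaks by m6A-ORL and 4 in each MeRIP list. Its 4 peaks were the most of any of these genes in m6A-ORL replicate 2, and ZNF687 was the only one with 3 separate stretches in which all 4 lists had peaks, although its m6A-ORL peaks did not overlap each other in any of them. ZNF532 had 4 and 1 peaks by m6A-ORL and 4 and 3 by MeRIP, and ZNF592, the third partner, had 1 and 0 against 3 and 4. ZNF292, which encodes a very large zinc finger transcription factor, had 7 and 1 against 5 and 4, and ZNF646 had the same numbers. ZNF384, known for its fusions in acute leukaemia, had 4 and 1 against 5 and 4, and ZNF516, a regulator of brown fat genes in mice, had 2 and 1 against 5 and 7.

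ZNF598 encodes the ubiquitin ligase that marks collided ribosomes. It had 1 and 3 peaks by m6A-ORL and 5 in each MeRIP list, and so had more peaks in m6A-ORL replicate 2 than in replicate 1. ZNF48 likewise had 2 and 3 by m6A-ORL, and 4 and 3 by MeRIP. ZNF704 had 5 and 1 against 5 and 6, ZNF398 5 and 3 against 4 and 4, ZNF276 3 and 2 against 4 and 4, and ZNF689 4 and 2 against 3 and 3. The remaining 22 genes of this group had 1 to 4 peaks in m6A-ORL replicate 1, 1 to 3 in replicate 2, 1 to 4 in MeRIP replicate 1 and 1 to 5 in MeRIP replicate 2.

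Among the 43 genes listed in each MeRIP library and never by m6A-ORL were several with many antibody peaks. ZNF517 (chr8:144798913-144813513, plus strand) had 0 and 0 peaks by m6A-ORL and 7 and 5 by MeRIP. ZNF862 had 4 and 5 by MeRIP, ZNF251 had 4 and 4, and ZNF696 had 5 and 3, or 3 and 2 when peaks were assigned by span and strand. ZNF467, a regulator of bone and fat cell formation in mice, and ZNF488, a partner of OLIG2 in mouse oligodendrocytes, had 4 and 3 each. ZNF853 had 3 and 4, ZNF891 4 and 3, ZNF697 3 and 3, and ZNF713, whose span also held an ID left unnamed, 4 and 2. All 10 thus had at least 6 MeRIP peaks over both lists and no m6A-ORL peak in either library.

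The 4 genes with m6A-ORL peaks alone had few of them. ZNF124, a KRAB zinc finger gene, and ZNF200 each had 2 peaks in m6A-ORL replicate 1, none in replicate 2 and none in either MeRIP list. ZNF655 had 1 peak, also in replicate 1 alone. ZNF330, which encodes a nucleolar protein, had 1 peak in each m6A-ORL list and none by MeRIP. Its peaks spanned the same splice junction, at chr4:141221066-141222472 in replicate 1 and chr4:141220976-141222412 in replicate 2, and their blocks overlapped. ZNF219, a partner of SOX9 in mouse cartilage, was the only gene with peaks in both m6A-ORL lists and in 1 MeRIP list, with 1 and 1 against 2 and 0, and its m6A-ORL peaks did not overlap each other.

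**Figure D2:**
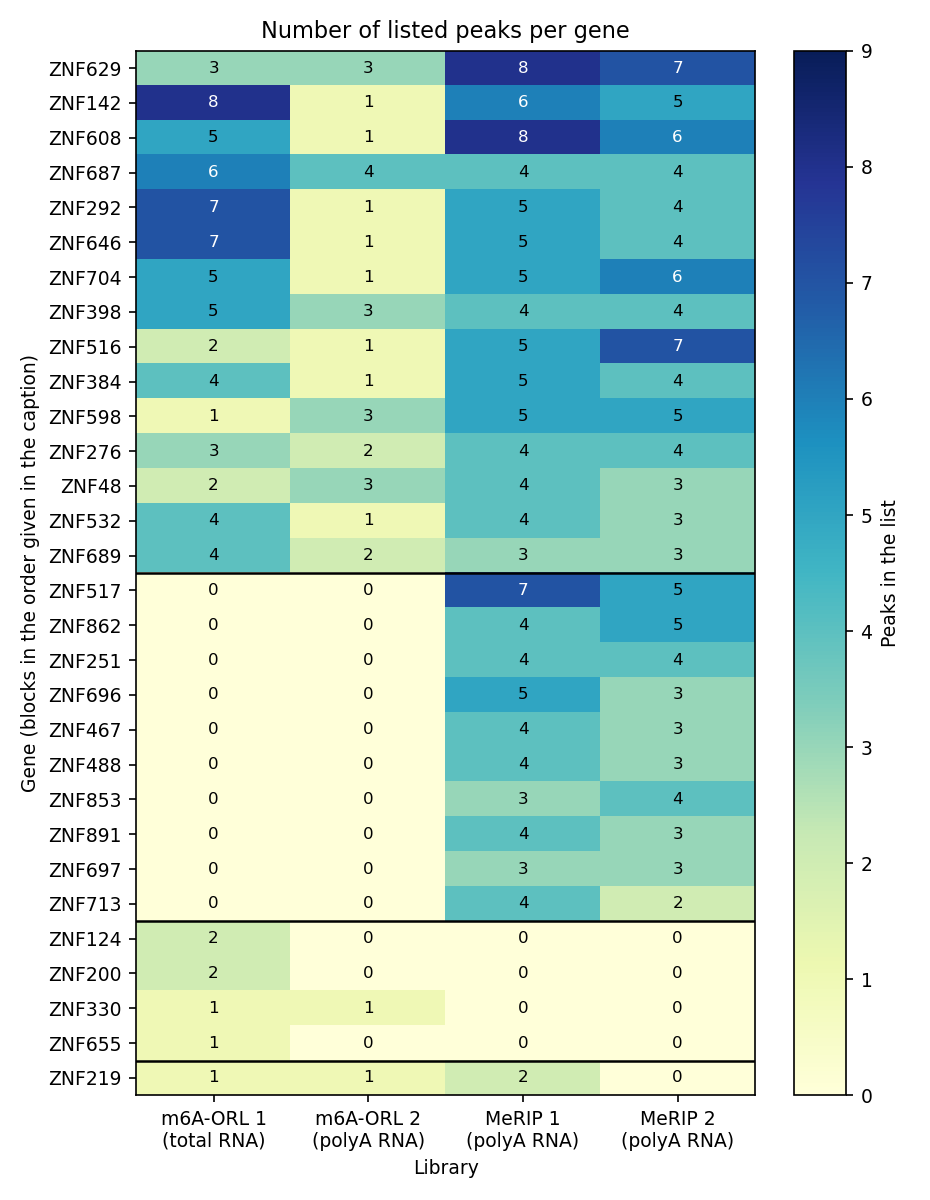
Number of listed peaks per gene in each library, m6A-ORL at the left and MeRIP at the right. Blocks from top to bottom hold 15 of 37 genes in all 4 lists, 10 of 43 with peaks in both MeRIP lists and none by m6A-ORL, the 4 with m6A-ORL peaks alone and the 1 with both m6A-ORL lists and 1 MeRIP list. Cells in m6A-ORL replicate 2 reach 4 peaks and those in m6A-ORL replicate 1 reach 8.

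By known role, the 24 genes of transcription and chromatin regulators without a KRAB domain were listed in 19 cases (79.2%) by m6A-ORL replicate 1 and 11 (45.8%) by replicate 2, and in 22 (91.7%) by both MeRIP lists. All protein-coding genes stood at 27.4%, 19.9% and 36.4%, and all 237 ZNF genes outside chromosome 19 at 51.9%, 21.5% and 69.6%. The role lists were chosen with results known, and nothing particular to a list is read from these counts. Both m6A-ORL lists held 8 of the 24, beside 12.1% of all protein-coding genes and 16.5% of the 237 genes. ZNF318, needed for IgD splicing in mouse B cells, had 7 and 0 peaks by m6A-ORL and 9 and 8 by MeRIP. ZNF618, a partner of UHRF2 in binding hydroxymethylated DNA, had 5 and 0 against 9 and 8. ZNF503 and ZNF703, close relatives that encode corepressors, had 4 and 2 and 2 and 2 peaks by m6A-ORL, and 1 and 1 and 1 and 2 by MeRIP. In both of these genes the antibody lists held a wide peak, of 2606 and 2576 nt in ZNF503 and of 2151 nt in each MeRIP list in ZNF703, that overlapped several m6A-ORL peaks, so a peak count sets narrow and wide peaks side by side. ZNF143, an activator of snRNA and many mRNA promoters, had no peak in any list.

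Of 15 SCAN domain genes, m6A-ORL replicate 1 listed 11 (73.3%), replicate 2 listed 2 (13.3%) and both MeRIP lists 13 (86.7%), beside 27.4%, 19.9% and 36.4% of all protein-coding genes. The list is not complete, since ZNF449 and ZNF18 encode SCAN domains too. ZNF449 had 1 peak in each of the 4 lists, and ZNF18 had 0 and 1 by m6A-ORL and 2 and 2 by MeRIP. Among the 15, ZNF500 was in both m6A-ORL lists, with 2 and 1 peaks, against 2 and 3 by MeRIP. ZNF213 was absent from m6A-ORL replicate 1, with 0 and 2 against 4 and 5. ZNF202 had 3 and 0 against 7 and 5, ZNF483 2 and 0 against 6 and 6, and ZNF263 2 and 0 against 4 and 5. ZNF165 had no peak. The median number of peaks in this group was 2 and 0 by m6A-ORL and 2 and 3 by MeRIP, where all 237 genes had medians of 1 and 0, and 2 and 2.

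Of 8 genes for proteins of RNA, the ribosome or nuclear RNA, m6A-ORL replicate 1 listed 6 (75.0%), replicate 2 listed 2 (25.0%) and both MeRIP lists 6 (75.0%), beside 51.9%, 21.5% and 69.6% of all 237 genes. All protein-coding genes stood at 27.4%, 19.9% and 36.4%. Beside ZNF598, ZNF638, whose protein silences unintegrated retroviral DNA, had 5 and 0 by m6A-ORL and 6 and 5 by MeRIP. ZNF106, whose mouse counterpart binds repeat RNA, had 3 and 0 against 3 and 4. ZNF593, whose yeast counterpart acts in ribosome assembly, had 1 and 0 against 2 and 2, and ZNF326, of a complex that couples elongation to splicing, had none. ZNF207, a spindle and kinetochore protein gene, had 3 and 0 by m6A-ORL against 1 and 1 by MeRIP.

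Within genes, the lists held 284 and 75 peaks by m6A-ORL and 473 and 477 by MeRIP, which is 2.58% and 0.979% of the m6A-ORL lists and 2.28% and 2.36% of the MeRIP lists. A listed gene had 2.31 and 1.47 peaks on average by m6A-ORL and 2.67 and 2.74 by MeRIP. A single peak was the case for 50 (40.7%) and 36 (70.6%) of the genes listed by m6A-ORL, and for 52 (29.4%) and 43 (24.7%) of those listed by MeRIP. Median peak width was 121 nt in both m6A-ORL lists and 241 and 240 nt in the MeRIP lists. In other protein-coding genes it was 150 nt in both m6A-ORL lists and 238 and 211 nt in the MeRIP lists.

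Overlapping peaks of 1 gene, sharing at least 1 nt of their blocks, were joined across lists into 607 sites in 190 genes. A wide peak can thereby join narrow peaks that do not overlap each other. Over all protein-coding genes the same step gave 26000 sites. Both methods had a peak at 181 sites (29.8%; background 24.6%) of 109 genes, m6A-ORL alone at 98 (16.1%; background 26.2%) of 69 genes and MeRIP alone at 328 (54.0%; background 49.3%) of 160 genes. Both m6A-ORL lists had a peak at 26 sites (4.28%; background 6.02%) of 24 genes and both MeRIP lists at 380 (62.6%; background 54.2%). All 4 lists had a peak at 22 sites (3.62%; background 4.69%) in 20 genes. The m6A-ORL peaks of the 2 libraries overlapped each other directly at 16 of the 26 sites (61.5%; 79.0% over all protein-coding genes) and at 12 of the 22 (54.5%; 73.2%). Of the 39 genes in both m6A-ORL lists, 16 (41.0%) had such a direct overlap, against 45.1% of all protein-coding genes in both lists.

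ZNF687 held 3 of the 22 sites, in none of which the m6A-ORL peaks overlapped each other. The site near the start, chr1:151281708-151285265, was spliced and carried 120 and 61 nt of peak by m6A-ORL and 450 and 510 nt by MeRIP. The middle site, chr1:151286074-151288643, carried 3 and 2 m6A-ORL peaks and 1 wide peak in each MeRIP list. The last site, chr1:151291457-151291846, lay 561 nt from the annotated 3' end and was 390 nt long in all. In the ZNF598 site, chr16:1997923-1998552, 568 nt from the 3' end, the m6A-ORL peaks of 61 and 90 nt lay under MeRIP peaks of 570 and 630 nt and did not overlap each other. In ZNF689, at chr16:30604443-30605400, each m6A-ORL list had 2 peaks beneath MeRIP peaks of 958 and 838 nt.

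**Figure D3:**
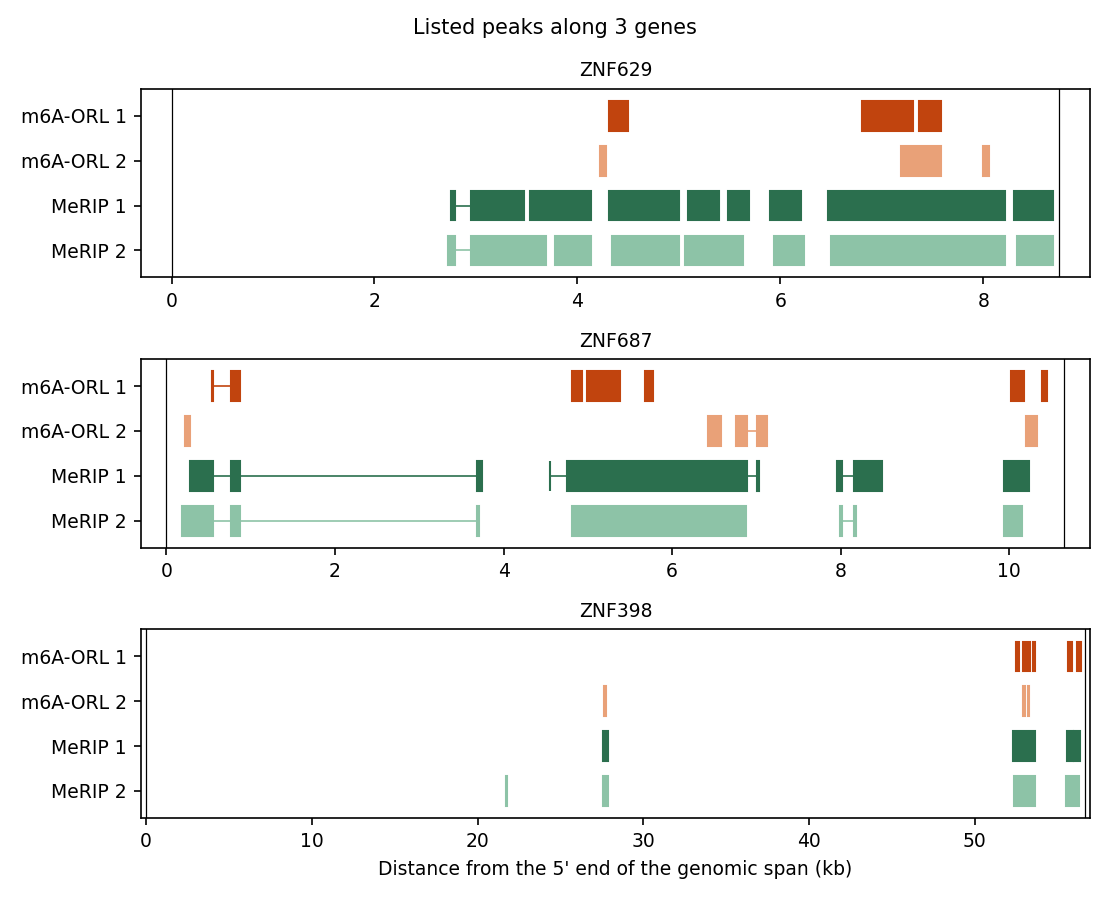
Listed peaks of ZNF629, ZNF687 and ZNF398 along the genomic span, as distance from the 5' end in kb, with 1 row per library. Boxes are peak blocks, thin lines join the blocks of a spliced peak, and vertical lines mark the ends of the span. Most m6A-ORL blocks are narrower than the MeRIP blocks over them, and the m6A-ORL libraries often mark different places under the same MeRIP peak.

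MeRIP overlapped 68.7% ± 2.33 of the m6A-ORL peaks in these genes (SD over 4 directed pairs of libraries, range 66.7% to 72.0%). For other protein-coding genes it was 51.4% ± 7.19 (44.5% to 58.7%) and for ZNF genes of chromosome 19 64.9% ± 2.76. The value for m6A-ORL replicate 2 stood furthest from that of other genes, with 72.0% and 66.7% against 46.1% and 44.5%. In the other direction m6A-ORL overlapped 21.0% ± 14.5 of the MeRIP peaks, against 21.6% ± 6.17 in other protein-coding genes. That mean joins 33.6% and 33.5% for m6A-ORL replicate 1 with 8.67% and 8.18% for replicate 2, and the corresponding values of other genes were 27.0% and 26.8%, and 16.4% and 16.1%. Between m6A-ORL libraries the overlap was 7.75% for replicate 1 peaks and 26.7% for those of replicate 2, against 15.6% and 19.5% in other genes, while between MeRIP libraries it was 85.8% and 86.2%. Peaks are not replicates and directed pairs share libraries, so these shares were not tested.

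**Figure D4:**
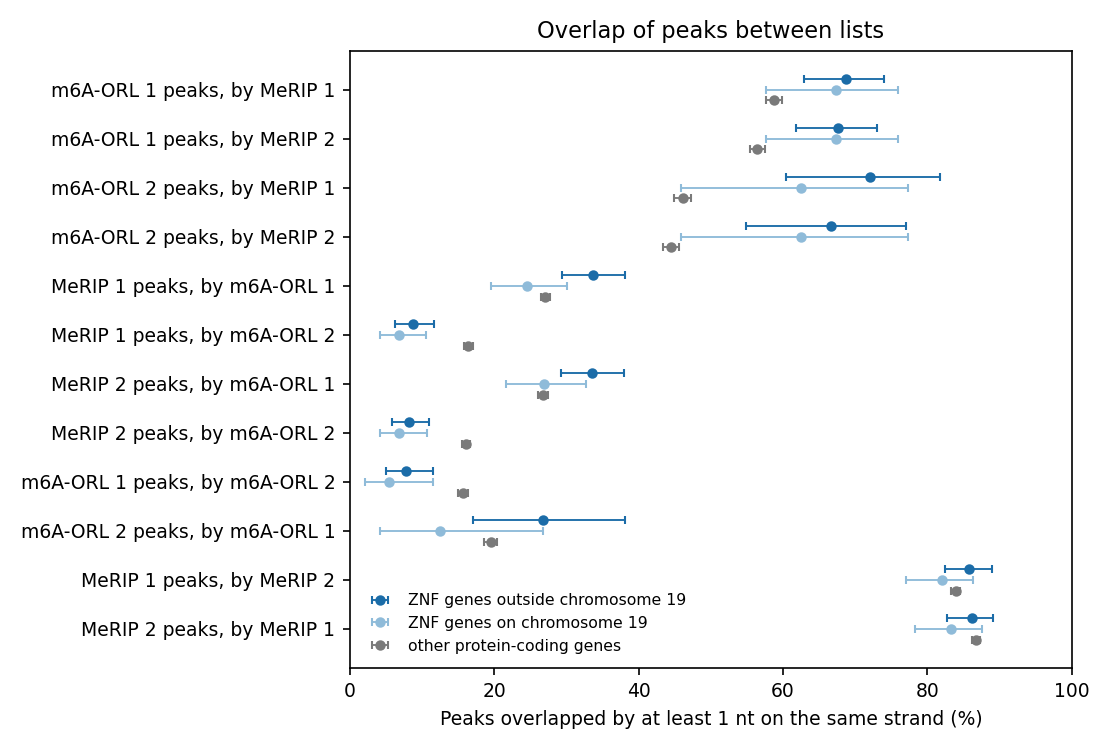
Share of peaks (%) of one list that share 1 nt or more with another list on their strand, for ZNF genes outside chromosome 19, ZNF genes on it and other protein-coding genes. Points are shares and whiskers exact 95% binomial intervals over peaks. In the 4 upper pairs, m6A-ORL peaks of ZNF genes outside chromosome 19 lie between 66.7% and 72.0%, to the right of other protein-coding genes.

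In the shares by position, peaks beyond an end of the annotated span were counted with the 10% nearest that end. Along the genomic span, the final 10% held 32.0% and 38.7% of m6A-ORL peaks and 31.3% and 32.9% of MeRIP peaks of these genes. The means were 35.4% ± 4.68 against 32.1% ± 1.15 (SD, n = 2 per method, p = 0.67 by two-sided exact permutation). Without m6A-ORL replicate 2 the difference of 3.25 points became -0.0596. The first 10% held 7.04% and 10.7% by m6A-ORL and 8.67% and 10.1% by MeRIP. These values were below those of other protein-coding genes in every library, with differences of -11.5 and -7.92 points by m6A-ORL and -6.56 and -5.59 points by MeRIP (exact two-sided sign-flip permutation p = 0.13, the smallest that 4 libraries allow). With peaks outside the span left out, the first 10% held 6.79% and 8.33% by m6A-ORL and 7.92% and 9.19% by MeRIP. Other protein-coding genes then had 17.2% and 18.0% by m6A-ORL and 14.0% and 14.4% by MeRIP. Within 300 nt of the 5' end, or upstream of it, lay 2.11% and 6.67% of m6A-ORL peaks and 6.98% and 8.39% of MeRIP peaks. These shares were again below other genes in all 4 libraries (exact two-sided sign-flip permutation p = 0.13). ZNF genes of chromosome 19 had 4.55% and 2.50% by m6A-ORL and 5.76% and 6.06% by MeRIP in the first 10%, lower than the genes outside it in each library. Within 300 nt of the 5' end, or upstream of it, the genes of chromosome 19 had 5.45% and 5.00% by m6A-ORL and 7.19% and 7.20% by MeRIP. These shares were lower than those of the genes outside it in both second replicates and higher in both first ones. Exons were not at hand, so where exon sequence lies in a span cannot be told apart from where peaks lie.

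**Figure D5:**
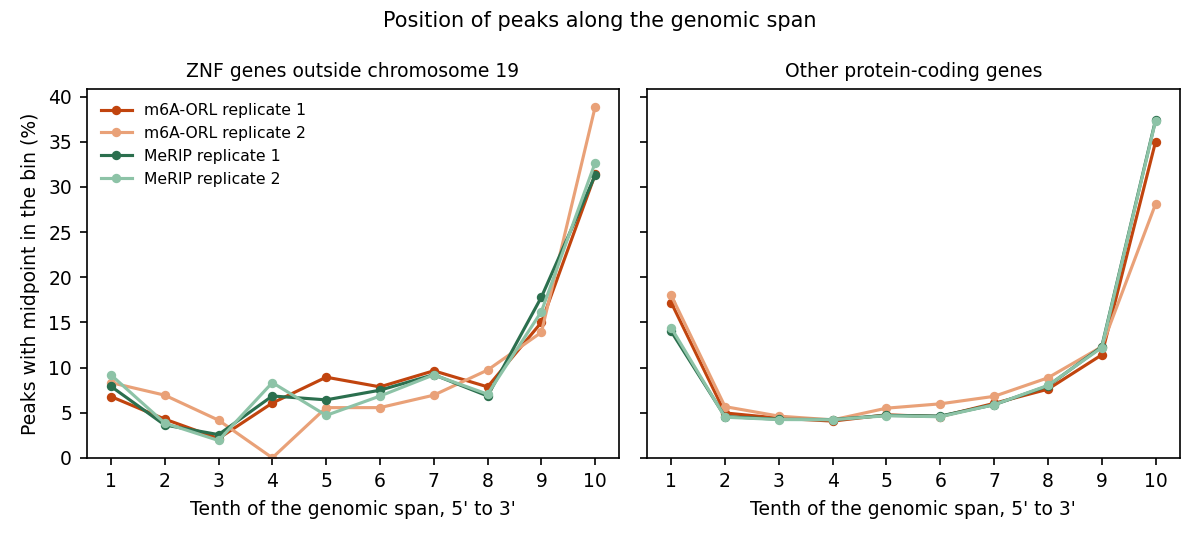
Share of peaks (%) with their midpoint in each 10% of the genomic span, 5' to 3', for ZNF genes outside chromosome 19 and for other protein-coding genes, with 1 line per library. Peaks outside the annotated span are left out. Both panels are highest in the last 10%, and the first 10% stands at 6.79% to 9.19% in ZNF genes outside chromosome 19 and at 14.0% to 18.0% in other protein-coding genes.

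Peaks that crossed a splice junction were 12 of 284 (4.23%) and 9 of 75 (12%) by m6A-ORL, and 60 of 473 (12.7%) and 55 of 477 (11.5%) by MeRIP. Other protein-coding genes had 10.6% and 28.3% by m6A-ORL and 17.0% and 16.5% by MeRIP, so the ZNF genes outside chromosome 19 were lower in every library, with differences of -6.33 and -16.3 points by m6A-ORL and -4.36 and -4.97 points by MeRIP (exact two-sided sign-flip permutation p = 0.13). ZNF genes of chromosome 19 were lower still, at 0.909% and 5.00% by m6A-ORL and 7.91% and 7.95% by MeRIP, so the low share is not particular to the genes outside it.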

How the data were processed

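Peak lists of 4 captured libraries were used. Per the file headers each has 12 BED columns with strand, blocks, an Ensembl gene ID and a score, which the authors deposited and whose range of 0 to 0.0081 is that of a p-value or q-value (0 reads as underflow). It was used to order and select peaks inside each list and for nothing else. Per the submitters' processing notes, Trim Galore, STAR and HOMER were among the tools and hg38 was the build, with no role stated. Nothing names the peak caller, its threshold, its input or any pooling of libraries (not given in the sources used here). Duplicate lines (2 and 1 by m6A-ORL, 4 and 3 by MeRIP) were removed.

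The RefSeq gene table (GRCh38.p14) holds no Ensembl ID that matched (0), so an ID took the name of 1 gene whose span, and strand where given, held at least 50% of its peak bases, protein-coding genes first. This named 12239 of 13566 IDs (90.2%). An earlier 90% rule missed members whose peaks run past the RefSeq span and is an alternative added after seeing the data. RefSeq gave strand and start for 195 members and neither for 42. Assignment was tested on simulated IDs, with peaks drawn inside the spans of genes of known strand. That test does not cover peaks running past a span or genes without strand. Position along a gene is in steps of 10% of the genomic span and is that of the peak midpoint.

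The member rule and the role lists use no measured value themselves but were chosen with earlier results of these data known. Method means were compared by exact permutation over libraries, and gene sets within a library by exact sign flips. Intervals (95%) and shares cover counting error only. Genes named in the text are those with most peaks in each listing pattern, up to 15 in all 4 lists and 10 in the others, and up to 4 per role list with those lists' absent members. ZNF18, ZNF449, ZNF500, ZNF503, ZNF589, ZNF592, ZNF703 and genes of the start windows were added after their values were seen. Protein and peak sequences were not used here. Alternatives were equal list length, the better-scored 50% of peaks, single-block peaks, a 50% overlap, naming rules, 1 library per method and leaving out each library. Python 3.11.15, NumPy 2.4.6, pandas 2.3.3, SciPy 1.17.1 and Matplotlib 3.10.9 were used.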

Additional observations from a re-analysis of the deposited data

How the results depend on the processing

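Of 82 alternative settings over 8 results, 74 were counted as unchanged. Some of these could not differ by construction. Leaving out a library of 1 method cannot alter the gene count of the other method, and the replicate block keeps each difference as it is. The rules were loose as well. A difference had to keep its sign, whatever its size or p-value. An overlap share had to stay within 1 SD over pairs of libraries. A gene count had to stay within a fixed fold change, so that 165 genes in both MeRIP lists becoming 118 with the better-scored 50% of peaks counted as unchanged. The count of 39 genes in both m6A-ORL lists was 12 with the better-scored 50% of each list and 135 when 1 library sufficed. The 165 genes in both MeRIP lists were 95 with lists of equal length. MeRIP overlapped 56.2% of m6A-ORL peaks with lists of equal length, 52.2% with single-block peaks and 62.0% when at least 50% of the peak had to be covered, against 68.7%. In the other direction that last rule gave 6.84% of MeRIP peaks, against 21.0% ± 14.5. The position difference of 3.25 points was -0.0596 without m6A-ORL replicate 2. By construction, 1 of these settings is looser (1 library sufficing) and the others keep fewer peaks, fewer libraries or a stricter rule; further causes were not tested.

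Leaving out 1 library at a time gave 39 to 123 genes by m6A-ORL (123 without replicate 2) and 165 to 177 by MeRIP. Without a library of the same method, these count genes in the 1 list left rather than in both. Such a count can only stay or rise. The difference in the share of genes ran from -52.5 to -22.2 points, that in the excess over other genes from -34.1 to -10.8, the excess over chromosome 19 from 17.7 to 21.7 and the position difference from -0.0596 to 6.56. The overlaps ran from 67.1% to 70.3% of m6A-ORL peaks and from 8.42% to 33.6% of MeRIP peaks. With the replicate number as a block the differences were -37.3, -22.4 and 3.25 points, each with an exact permutation p of 0.5, the smallest that 2 pairs allow; nothing in the labels pairs the libraries.

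Names given by position can be wrong where genes overlap. For 11 genes, among them ZNF503, ZNF713, ZNF747 and ZNF782, a second unnamed ID lay in the span, and 27 had other peak numbers when peaks were assigned by span and strand, which takes ZNF771 and ZNF782 out of the genes with peaks in both m6A-ORL lists. Without depth, exons or expression, absence of a peak is not absence of m6A.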

Other observations

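Listings of members that neighbour each other in the genome are given here by cluster, each of few genes. Of the 237 genes, 75 lay in 10 clusters of at least 5 members with gaps under 500000 nt. Over all 10 clusters m6A-ORL replicate 1 listed 38 members (50.7%), replicate 2 listed 15 (20.0%) and both MeRIP lists 51 (68.0%), where all protein-coding genes stood at 27.4%, 19.9% and 36.4%. Both m6A-ORL lists held 13 of the 75, beside 12.1% of all protein-coding genes and 16.5% of the 237. The 13 members at chr16:30378312-31917357 had peaks in 8 cases in each m6A-ORL list and in 7 cases in both, against 12 in both MeRIP lists. The cluster holds ZNF629, ZNF689, ZNF646, ZNF48, ZNF768, ZNF771 and ZNF747, which are the 7 listed by all 4 libraries by ID. ZNF771 had no m6A-ORL peak when peaks were assigned by span and strand, and the span of ZNF747 also held an unnamed ID, while ZNF267 had no peak. At chr7:149069641-149867479, 5 of 10 members were in both m6A-ORL lists and all 10 in both MeRIP lists, among them ZNF398, ZNF282, ZNF786, ZNF777 and ZNF746, whose protein is a parkin substrate. At chr16:3112586-3443504, 1 of 6 members was in both m6A-ORL lists and 5 in both MeRIP lists.

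The other 7 clusters, on chromosomes 1, 3, 4, 7, 8, 12 and X, had none of their 46 members in m6A-ORL replicate 2 (background 19.9%). In them m6A-ORL replicate 1 listed 19 (41.3%) and both MeRIP lists 24 (52.2%). They are set apart by that absence itself and each has few members, so nothing is read from it. The 11 members at chr7:63998849-65401136 were listed in 6 cases by m6A-ORL replicate 1 and in 4 by both MeRIP lists. By whole chromosome, 11 of 29 members on chromosome 16 (37.9%) were in both m6A-ORL lists, where other protein-coding genes of that chromosome had 18.2%. On chromosome 7 it was 6 of 34 (17.6% against 12.8%) and on chromosome 3 it was 0 of 18 (0% against 9.83%). The clusters were read from position after the peak numbers were known, neighbouring paralogs can share reads, and no test was made.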
